A study of Danio rerio with 6 samples.

Results

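The open chromatin of control adult zebrafish blood is described here as 16509 regions of the genome that carried an ATAC-seq peak in each of 3 control libraries. Peaks of the 3 lists that overlapped by at least 1 bp were merged, which gave 136652 regions in all, and the 16509 regions with a peak from every list (12.1%) were kept and are called common regions. The peaks chose the regions, so their number, width and score are given as descriptions with no test.

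ATAC-seq cuts DNA with a transposase that reaches only stretches not packed tightly around nucleosomes, so peaks are taken to mark promoters, enhancers and other accessible DNA. In fish, red cells keep their nucleus in the circulation and make up most of the blood, whereas those of mammals lose it. A blood sample therefore yields mostly red cell chromatin, with a smaller part from thrombocytes, the nucleated counterpart of platelets, and from white cells.

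The study compared blood of adults raised from embryos kept in 1 micromolar cortisol with that of vehicle-treated siblings, 3 libraries of each. Only the controls were used. They were wild-type AB fish whose larval medium held the solvent DMSO for the first 5 days of life, after which they grew up under normal conditions, and they were sampled at 12, 11 and 10 months for replicates 1, 2 and 3. The paper describes each replicate as blood pooled from several fish of both sexes, the series text as single fish. No control library had the same age as another, so age and library cannot be told apart. With bulk blood, a weaker peak in fewer cells and in each cell alike cannot be told apart either.

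The lists differed in length by library. Replicate 1 held 138146 peaks, replicate 2 held 63072 and replicate 3 held 29401. Sequencing depth is unknown from the lists, which hold no read counts. The common regions took up 17.7%, 37.2% and 75.6% of the peaks of replicates 1, 2 and 3, so the shortest list was mostly contained in the others. A peak's score was 10 times the -log10 of the q-value at its summit, as the peak caller MACS2 writes it, and was not scaled between libraries. Its median over all peaks was 65, 74 and 246. The peak names of replicates 1, 2 and 3 begin V1, W0 and X0, so replicate 1 carries another digit. What the digit stands for is unknown, and the control label of each library rests on its sample title.

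Most merged regions were private to 1 list. A peak in a single list was found for 97719 regions, of which 79491 were in replicate 1, 15134 in replicate 2 and 3094 in replicate 3. A further 22424 regions were in 2 lists, and replicate 3 was the missing one in 18569 of them, replicate 2 in 2620 and replicate 1 in 1235. Just outside the rule, regions missing only in replicate 3 had median scores of 76 and 64 in replicates 1 and 2. Just inside it, the weakest common regions reached down to 31, 33 and 35, which were the lowest scores of the 3 lists, and 76 common regions were in the lowest 5% of the members in all 3 libraries. The common regions as a whole had median scores of 256, 233 and 540.

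Common regions were wider than the rest. Their median width was 566 bp, with quartiles of 432 and 804 bp, against 423 bp for regions in 2 lists and 245 bp for regions in 1. Part of this follows from merging more intervals, and no called region was under 200 bp. They covered 12.1 Mb, and 10911 of them (66.1%) held a single summit in each library. Below 500 bp were 6570 regions, 7629 were between 500 and 1000 bp, 1968 between 1 and 2 kb, and 342 reached 2 kb or more, up to 55043 bp.

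**Figure D1:**
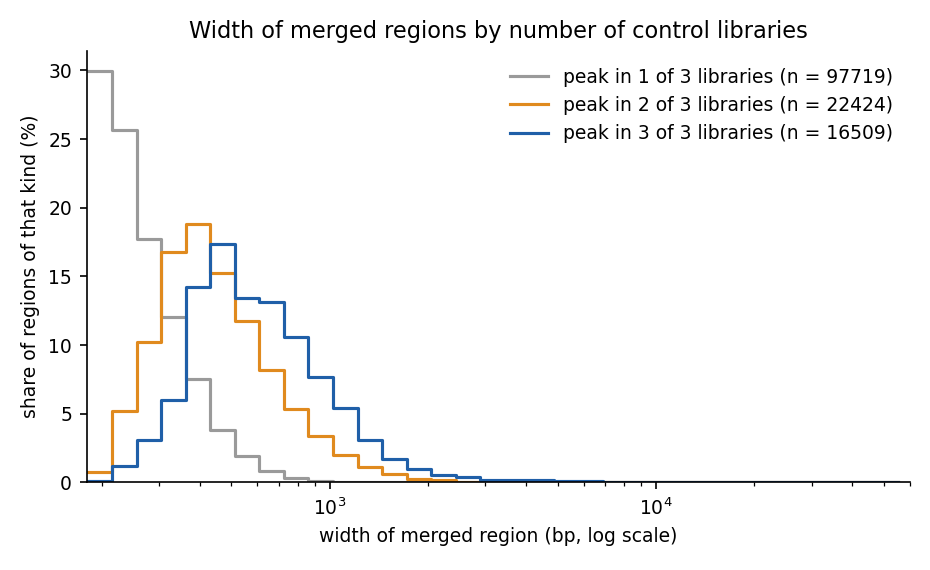
Width of merged regions (x axis, bp, log scale) as the share of regions with a peak in 1, 2 or 3 control libraries (y axis, %). The line for the 16509 common regions lies to the right of the others, with medians of 245, 423 and 566 bp for 1, 2 and 3 libraries.

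The strength of a common region was read as its rank in a library. A region's score was that of its highest peak, and its percentile was taken among all regions with a peak in the same library. The median percentile of the common regions was 92.4 in replicate 1, 83.5 in replicate 2 and 64.6 in replicate 3, an order that mirrors the lengths of the lists. Of the common regions, 61.2%, 30.9% and 14.3% lay in the top 10% of replicates 1, 2 and 3, and 4.88%, 10.2% and 32.9% lay in the lower 50%. To set the libraries side by side, the percentile was also taken among the 16509 common regions alone, and is called the place of a region, from 0 for the weakest to 100 for the strongest.

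The 3 libraries ordered the common regions alike, but not equally so. The Spearman correlation of the scores across regions was 0.86 between replicates 1 and 2, 0.81 between 2 and 3, and 0.73 between 1 and 3. These values describe 16509 regions of the same libraries, which are not independent replicates. Of the strongest 1650 regions of a library, 1108 (67.2%) were among the strongest 1650 of the other libraries too. The place of a region differed by a median of 16.9 points between its highest and lowest library, and by over 50 points in 618 regions (3.74%).

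The scores of replicates 1 and 3 fell into branches that were clearly apart at high scores but not over all common regions. In 12267 regions the score of replicate 3 was at or above that of replicate 1, with a median log2 ratio of 1.40, and in 4242 regions (25.7%) it was below, with a median log2 ratio of -1.13. Among the 1261 regions that scored over 2000 in replicate 1 the branches were apart, with 432 regions at a log2 ratio between 1 and 1.5, 197 between -2 and -1.5, and 3 between -0.5 and 0. Over all common regions there was a shallow dip and no gap. The counts were 1047 between -1.5 and -1, 926 between -1 and -0.5, 935 between -0.5 and 0, and 1193 between 0 and 0.5. Upper and lower branch are thus names for a cut at equal scores. For replicate 2 over replicate 1 the median log2 ratio was -0.07 in the upper branch and -0.61 in the lower. The correlation between replicates 1 and 3 was 0.90 within the upper branch and 0.84 within the lower, against 0.73 over all common regions. Between replicates 2 and 3 it was 0.92 and 0.73, against 0.81. The branches were defined by the ratio of the scores of replicates 1 and 3. Such a split raises the correlation of these scores within a branch by itself, so the rise is no evidence for the branches.

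**Figure D2:**
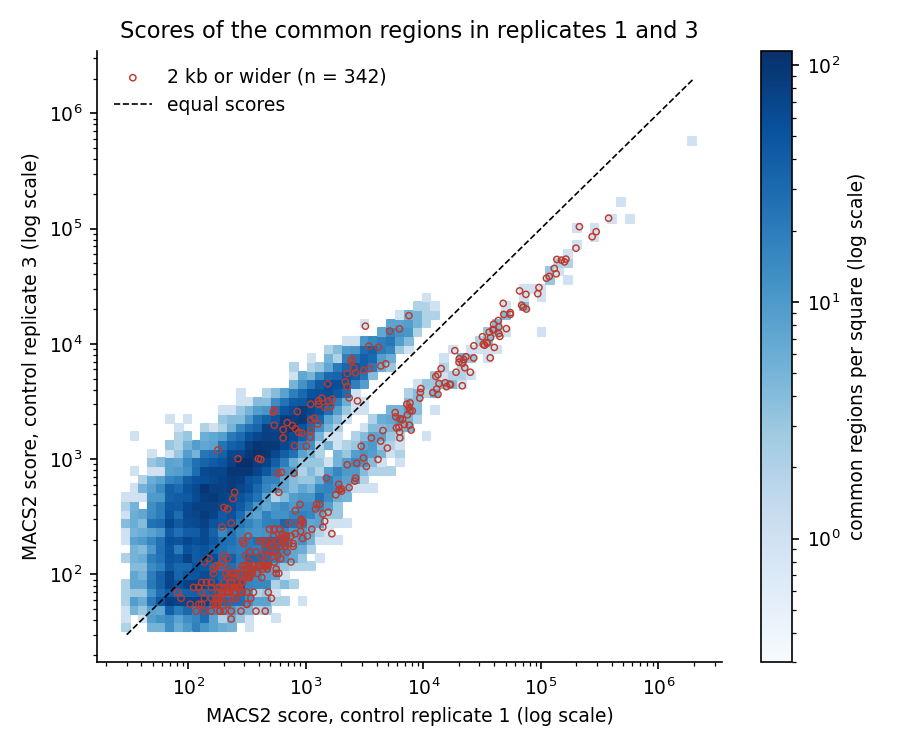
MACS2 score of the common regions in control replicate 1 (x axis, log scale) and replicate 3 (y axis, log scale). Squares are shaded by the number of regions, red circles are the 342 regions of 2 kb or wider, and the dashed line marks equal scores. Of the circles, 284 lie below the line, and every region of 5 kb or wider does.

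Width moved with the branch. Replicate 3 scored below replicate 1 in 30.3% of regions under 500 bp, in 18.6% between 500 and 1000 bp and in 27.8% between 1 and 2 kb. The share was 77.3% between 2 and 5 kb, and 100% in the 51 regions between 5 and 10 kb and in the 35 regions of 10 kb or wider. The widest regions had a median log2 ratio of -1.61 and many summits, with a median of 28, 28 and 27 in replicates 1, 2 and 3. Their median place was 99.7, near the top of the scale, where places can differ little whatever the scores.

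Regions of 5 kb or wider ranked high, with a median place of 91.7 in the 51 between 5 and 10 kb and 99.7 in the 35 of 10 kb or wider, whereas the 256 regions between 2 and 5 kb had 51.9 and those between 1 and 2 kb 65.0. Of the 10 common regions with the highest mean percentile, all scored lower in replicate 3 than in replicate 1, and 7 were 2 kb or wider. A location class was given for 5 of the 10, intergenic in each. Here and below, a distance to a start is that of the overlapping annotated peak nearest to one, not of the whole region. The strongest spanned the first 1203 bases of chromosome 24 in build GRCz10 and scored 1804887, 1436853 and 558553 in replicates 1, 2 and 3. In 9 common regions, 8 of them on scaffolds not placed on a chromosome, the region began at the first base of the sequence. The widest lay on chromosome 17 from 45193002 to 45248044, in an intron by the table's annotation, with *capn3a*, a calcium-dependent protease of muscle, as its nearest gene. It scored 117862, 121929 and 38421. A region of 29249 bp on chromosome 10, from 16825736 to 16854984 and 59308 bp from the nearest start site, that of *stoml2*, a mitochondrial membrane protein, scored 295276, 270358 and 93851. On chromosome 7, the 28990 bp from 52739472 to 52768461 scored 272779, 262760 and 84938. The nearest start, 68885 bp away, was that of *cdkn2aip*, a regulator of the p53 pathway. On chromosome 8 a region of 32089 bp whose nearest start was 53082 bp away at *hpdb* scored 163233, 155974 and 54274. On chromosome 14 a region of 18049 bp whose nearest start was 59132 bp away at *fmr1* scored 136685, 141403 and 53963. In each of these the value of replicate 3 was the lowest, and replicates 1 and 2 were close to each other. Peaks were called against 1 background for the whole genome, with duplicates kept and reads that matched a few places allowed. No correction for repeated sequence is described, so these high scores cannot be read as accessibility alone. What raised them was not tested.

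The other broad or strong regions had nearest genes of many kinds, mostly far away. Their nearest genes included *mir2185-2*, *or129-1*, *zgc:63694*, *zgc:158420*, *irge4*, *fam19a4b*, *zgc:153913*, *zgc:103755* and *pimr141*, and a region of 21302 bp on chromosome 4 lay nearest to *znf1041* and *mir430a-18*. A region of 19556 bp on chromosome 3, 40228 bp from *mafga*, a small Maf transcription factor, scored 70685, 55670 and 20751. One narrow region, 391 bp on chromosome 3 and 59387 bp from *sox9b*, scored 174063, 29270 and 60883, and here replicate 2 was the lowest. Replicate 3 was the lowest in every other region of this group, and all but the one near *pimr141* were over 10 kb from the gene that names them. The distance was 144923 bp for *fam19a4b*, 152581 bp for *mir2185-2* and at most 159743 bp, for *zgc:158420*.

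Of the 25 strongest regions of the upper branch with a named gene, 15 were promoters, beside 51.5% among all classed regions of that branch. Replicate 3 scored highest in all 25, beside 11867 of the 12267 regions of that branch. The cut at equal scores of replicates 1 and 3 largely fixes this in advance. Replicate 2 scored lowest in all 25, and the share over the branch was not counted. The median log2 ratio of replicate 2 over replicate 1 was -0.07 in that branch and -0.30 in the 200 strongest common regions of both branches. The promoter of *chac1*, which breaks down glutathione, scored 10320, 8232 and 21496 in replicates 1, 2 and 3. That of *stat3*, a transcription factor of cytokine signalling, scored 10947, 7494 and 19493. The promoter of *osgn1*, an oxidative stress response gene, scored 9475, 7280 and 19862, and that of *sin3aa*, the scaffold of a histone deacetylase complex, 12728, 6681 and 20083. In each, all places were above 99. A region of 1680 bp at the end of the *mir7a-3* gene scored 10737, 9131 and 25123, and a region 44685 bp from *gc2* scored 12454, 7889 and 18709. Only regions the study scored as larger in treated fish have a gene name here. The paper prints *chac1*, *stat3*, *osgn1*, *mir7a-3* and *gc2* among its top peaks, so this choice of genes is not independent of that comparison.

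Common regions were spread over the whole genome. On the 25 chromosomes lay 16140 of them, at 12.0 per Mb of the length that the peaks span, and 369 lay on 213 unplaced scaffolds. Chromosome 3 held the most per Mb, 14.8, and chromosome 9 the fewest, 8.86. Consecutive regions on a chromosome were a median of 27.3 kb apart, and 1774 gaps (11.0%) were under 1 kb. Of 1353 windows of 1 Mb, 10 held no common region, the median was 11 and the highest was 50, at 44 to 45 Mb of chromosome 11. That window held the genes *gnb4b*, *eif4a3*, *tk1*, *pfklb* and *mafgb* among others, and 31 of its 50 regions were annotated.

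Chromosome 4 stood apart from the other chromosomes. Its long arm is known in zebrafish for repeats and late replication. The score was lower in replicate 3 than in replicate 1 in 52.7% of its 767 common regions, against 18.1% to 32.3% on the other chromosomes. In steps of 10 Mb the share was 23.3% and 17.2% over the first 20 Mb, 43.9% from 20 to 30 Mb, and between 87.3% and 92.6% in each of the 4 steps from 30 to 70 Mb. From 70 Mb on it was 64.4%. From 50 to 60 Mb the median place was 60.9 in replicate 1, 53.5 in replicate 2 and 23.3 in replicate 3. Of all merged regions, between 19.7% and 29.0% were common in the 4 steps from 30 to 70 Mb, against 189 of 1453 in the first 10 Mb and 9.48% from 70 Mb on. On unplaced scaffolds 57.2% of the common regions scored lower in replicate 3.

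**Figure D3:**
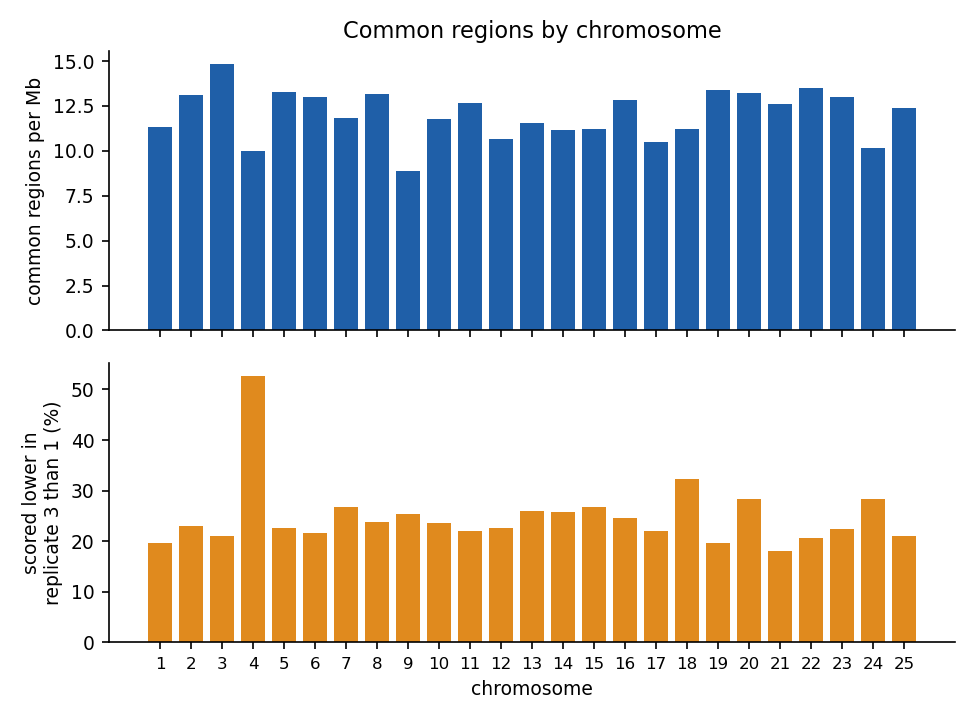
Common regions per Mb (top) and the share of them that scored lower in control replicate 3 than in replicate 1 (bottom, %) by chromosome (x axis). Chromosome 3 has the highest density, 14.8 per Mb, and chromosome 4 the highest share, 52.7%.

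Nearest genes came from the table of annotated peaks. That table lists regions the study scored as larger in treated fish than in controls, so a region without a row has no gene here, and the absence of a gene says nothing about its chromatin. Of the common regions, 8637 (52.3%, Wilson 95% interval 51.6% to 53.1%, counting error only) overlapped at least 1 row. With all 3 libraries, the annotated share was 92.2% in the 1000 strongest regions, and 4.91% in the 2728 regions with a mean place of 20 or lower. Of the regions scored lower in replicate 3 than in replicate 1, 265 (6.25%) were annotated, against 68.2% of the rest.

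By location class, promoters took the largest share of the annotated common regions. A class was given for 8534 regions. Of the 9546 annotated peaks, 8945 (93.7%) overlapped a common region. The shares therefore largely restate the make-up of that annotation, and regions without a row have no class. Of these, 4276 (50.1%) were promoters, 2983 intergenic, 888 (10.4%) intronic and 157 (1.84%) exonic, with 126 in a 5′ UTR, 93 at a transcription end and 11 in a 3′ UTR. Within 1000 bp of a start lay 56.0%, and beyond 10 kb 28.7%. The annotated peaks of promoter regions were centred a median of 40 bp upstream of the start (quartiles -97 and 1 bp), and 74.0% were centred upstream.

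Promoters and intergenic regions were close in strength, and exonic regions were lower. The median place was 69.5 for promoters, 68.6 for intergenic regions, 64.8 for introns and 55.0 for exons. Promoters were almost wholly in the upper branch, with 9 of 4276 scored lower in replicate 3 than in replicate 1, against 6.37% of intergenic and 5.63% of intronic regions. Among regions without annotation, 3977 of 7872 were in the lower branch.

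**Figure D4:**
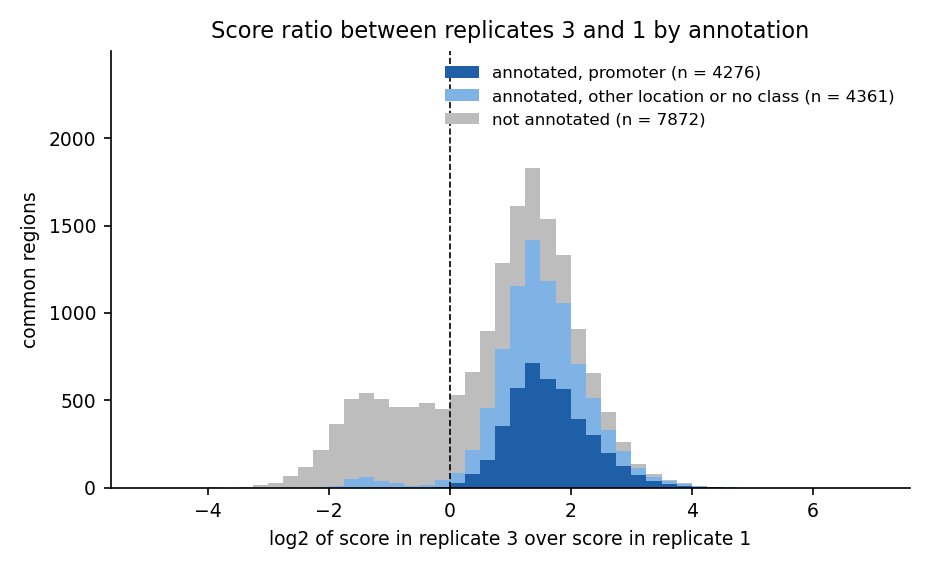
Number of common regions (y axis) by the log2 ratio of the score in control replicate 3 over that in replicate 1 (x axis), stacked by annotation. Promoters have a median of 1.59, other annotated regions of 1.39 and regions without annotation of -0.03, and the mode left of 0 is made mostly of regions without annotation.

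The annotated common regions named 6058 genes. Of these, 4418 had a single region, 1142 had 2, 295 had 3, and the rest had 4 or more. The gene with the most was *zgc:173577*, with 13, followed by *klf17*, an erythroid Krüppel-like factor of fish, with 9. For each gene the promoter region, or otherwise the region nearest to the start, was taken, and the mean place of these regions over the 3 libraries had a median of 68.6. The gene lists are set beside that value. It lies above 50 because annotated regions were the stronger ones. Of 27039 protein-coding genes in RefSeq, 5975 (22.1%) were named by a common region, and the counts of each list stand beside that share with no test. Of the 6058 named genes, 4189 (69.1%) had a promoter region, the share to set beside the promoter counts of a list.

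Globin genes, which code for the oxygen-carrying chains, had common regions at the main locus on chromosome 3. By symbol or by an older name that RefSeq gives, 3 of the 16 globin genes on the list (18.8%) had one, near the 22.1% of all protein-coding genes. The 2 regions named for *hbaa1*, an adult alpha chain, lay at 54845254 to 54846317 and at 54850232 to 54851708. Their annotated peaks were centred 32 and 38 bp upstream of a start. The first region scored 1162, 1604 and 4439 in replicates 1, 2 and 3 (places 86.1, 92.5 and 93.4) and the second 1826, 2212 and 6714. Between and beside these regions, those named for the beta chain genes *ba1l* and *ba2* scored 1031, 1091 and 3268 and 1667, 1775 and 7512. The name *ba2* is given by RefSeq to both *ba1l* and *hbba1*, and near-identical globin copies can share reads, so the gene within the cluster is uncertain. The embryonic alpha gene *hbae4*, listed as *zgc:163057* on chromosome 12, had a promoter region at 590, 481 and 1526 and 3 further regions.

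Downstream of the start of *nprl3*, whose introns are known in vertebrates to hold the distal enhancers of the alpha globin genes, 4 common regions lay on chromosome 3 between 54802642 and 54814125. The one classed as intronic, 13766 bp from the start, scored 2350, 1115 and 5891, with a mean place of 92.5. The others, classed as exonic, had mean places of 69.3, 70.8 and 26.4.

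Of 27 symbols for heme and iron, 20 (74.1%) had a common region, against 22.1% of all protein-coding genes. Of the 20, 17 had a promoter region, beside 69.1% of all named genes, and the median place was 80.2. In the order of the heme pathway, *alas2*, the red cell enzyme of the first step, scored 621, 663 and 1933 (mean place 78.3 ± 3.68, SD, n = 3 libraries, as for each place given with ± here). Near the top of the scale places can differ little whatever the scores, so a small SD there does not show close scores. The promoters of *alad* and *hmbsb*, which build the ring's precursors, had places of 86.8 ± 2.42 and 86.2 ± 1.75. A region 229 bp inside *uros* and the promoter of *urod*, the next enzymes, were weaker, at 46.7 ± 13.7 and 66.0 ± 11.6. The late enzymes *cpox*, *ppox* and *fech*, which inserts the iron, stood at 93.1 ± 3.61, 82.1 ± 4.34 and 77.2 ± 0.575.

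Genes that carry or store iron followed. The mitochondrial importers *slc25a38b* for glycine and *slc25a37* for iron had places of 84.5 ± 4.61 and 76.0 ± 2.78. Of the transferrin receptors, which take up iron, *tfr1a* had 4 regions and its nearest, 3892 bp upstream, had a place of 72.9 ± 10.1, whereas the promoter of *tfr1b* scored 70, 164 and 725 (34.4 ± 25.5). The ferritin genes *fth1b*, *fth1a* and *fthl27* (listed as *zgc:92066*) had 93.9 ± 2.37, 83.7 ± 5.45 and 82.1 ± 1.69. The strongest of the list was *blvrb*, a biliverdin reductase that acts after heme breakdown, at 5357, 3540 and 10297 (98.2 ± 0.486). Also present were *hmbsa*, *glrx5*, *tmem14ca* and *hmox2a*.

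Of 28 genes for the red cell membrane and gas exchange, 11 (39.3%) had a common region, against 22.1% of all protein-coding genes. Of the 11, 10 had a promoter region, beside 69.1% of all named genes, and the median place was 80.9. The promoter of *slc4a1a*, the anion exchanger band 3, scored 3660, 2510 and 8757 (96.9 ± 1.04). The beta spectrin gene *sptb*, part of the skeleton under the membrane, had 7 common regions, and the one nearest to its start, 2860 bp upstream, scored 2666, 2786 and 8260. The skeleton genes *mpp1*, *add1*, *tmod4*, *epb41b* and *dmtn* had mean places of 95.8, 94.1, 80.9, 78.3 and 51.6. The water channel *aqp1a.1* had 92.7, and the Rh family genes *rhd* and *rhag* had 80.1 and 61.2. For *cahz*, the red cell carbonic anhydrase, the scores were 611, 233 and 2392, and its place in replicate 2, 50.3, was below 74.1 and 85.6 in replicates 1 and 3.

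Of 35 regulators of red cell development, 29 (82.9%) had a common region, against 22.1% of all protein-coding genes, with a median place of 68.3, close to the 68.6 of all named genes. Of the 29, 25 had a promoter region, beside 69.1% of all named genes. The strongest promoters were those of *tfdp1a*, a cell cycle factor, at 3336, 4408 and 10655, of *hbp1*, a repressor of proliferation, at 2812, 1950 and 6445, and of *jak2a*, the kinase under cytokine receptors, at 2251, 2240 and 4869. The factors that define the lineage differed in place. The promoter of *gata1a*, the main erythroid GATA factor, scored 510, 443 and 1867 (73.4 ± 6.60), that of *tal1* 1102, 695 and 4401 (86.2 ± 6.77), and that of *klf1* 150, 136 and 618 (38.9 ± 12.8). The promoter of *bcl11aa*, known in mammals for silencing fetal globin, had a place of 92.5 ± 3.71. Each of *zfpm1*, a partner of GATA factors, and *foxo3b*, a factor of late maturation, had 7 common regions.

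Of the regulators on the list, *epor* and *lmo2* varied most in place between the libraries. The promoter of *epor*, the erythropoietin receptor, scored 123, 360 and 1323, with places of 24.4, 63.4 and 73.6. The promoter of *lmo2*, a bridge between *tal1* and GATA factors, scored 298, 49 and 404, with a place of 2.67 in replicate 2 against 54.9 and 42.2. The promoters of *stat5a* (48.0 ± 13.6), *myb* (42.9 ± 7.40) and *maff* (41.2 ± 14.4) and a region in the 5′ UTR of *ldb1a* (43.7 ± 10.5) were below the median of all named genes. The remaining genes of the list with a region were *foxo3a*, *nfe2l2a*, *nfe2*, *bcl2l1*, *bach1a*, *bach1b*, *runx3*, *xpo7*, *znfl2a*, *klf17*, *trim33*, *mych*, *mafk* and *jak2b*, with mean places between 38.4 and 90.2. Of these, *mych*, *bach1a* and *nfe2* had no promoter region and were named by intergenic regions 115356, 14075 and 3091 bp from the start.

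**Figure D5:**
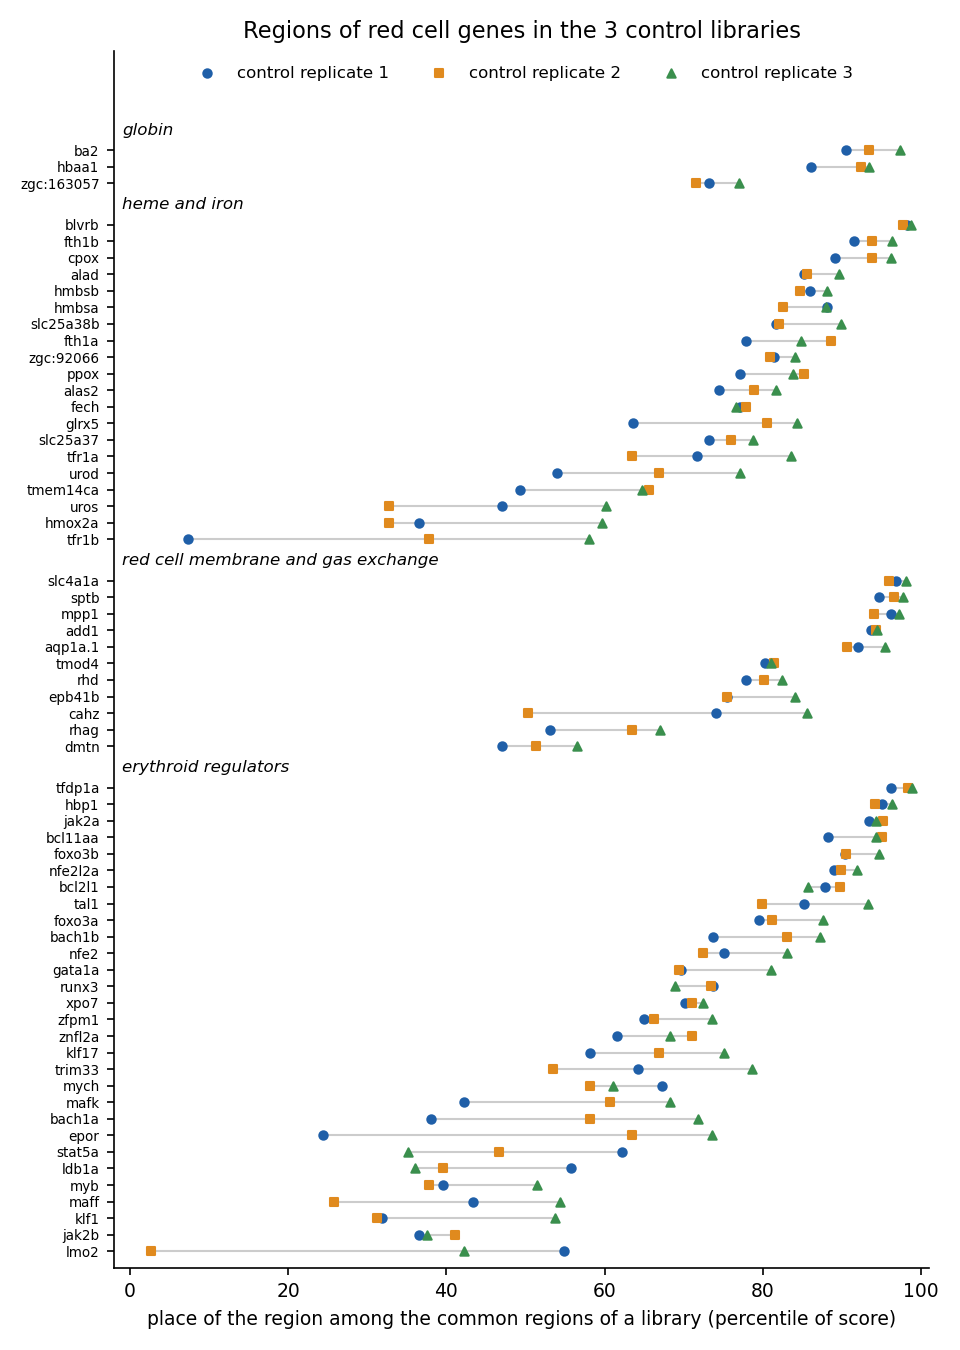
Place of the region of each globin, heme and iron, membrane and regulator gene among the common regions (x axis, percentile of score, 0 to 100) in the 3 control libraries, with a grey line from the lowest to the highest. Strong promoters such as *slc4a1a* and *blvrb* stay within a few points, while *epor*, *lmo2* and *tfr1b* differ by 49.2 to 52.3 points. Places near the top can differ little whatever the scores, which for *blvrb* were 5357, 3540 and 10297 in replicates 1, 2 and 3.

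Markers of other cells were named at shares between 13.8% and 17.9%, beside 22.1% of all protein-coding genes. Of 18 thrombocyte markers 3 had a common region, of 28 neutrophil and macrophage markers 5, of 28 lymphocyte markers 4 and of 29 markers of tissues outside the blood 4. Since only annotated regions have a name, these counts do not show the other markers to be closed. The promoter of *gp1bb*, a subunit of the platelet receptor for von Willebrand factor, scored 1524, 1449 and 4909, and that of *f13a1b*, a clotting factor subunit, 803, 510 and 2135. For *gfi1b*, a transcriptional repressor that acts in both thrombocytes and red cells, the nearest of 4 regions scored 186, 104 and 404. Of the white cell markers only *cyba*, an oxidase subunit, and *bcl6aa*, a transcriptional repressor acting in B cells and listed as *bcl6a*, had a promoter region. Their places were 55.7 ± 10.7 and 92.8 ± 0.764. Of all named genes, 69.1% had a promoter region.

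The other white cell names came from regions outside promoters. They were *spi1a*, *mpeg1.1*, *mmp9*, *il1b*, *tbx21* and *ikzf1*, at 3772 bp or more from the start, and *rag2*, with a region 542 bp inside the gene at 1920, 1896 and 5246. Of the markers of other tissues, *desma*, *fabp10a*, *myl7* and *try* were named by intergenic regions 10284 to 88676 bp away. None of these had a promoter region, beside 69.1% of all named genes. The defining myeloid markers *mpx* and *lyz* and the T cell kinase *lck* named no common region.

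Genes of the glucocorticoid receptor pathway stood high. This list was drawn up with knowledge of the study's question. It holds *fkbp5*, *klf9*, *sgk1*, *glcci1* and *txnipa*, which the paper prints among its top peaks. The table that names genes lists regions scored as larger in treated fish. Neither the count nor the places of this list are therefore independent evidence. Of 29 genes 19 (65.5%) had a common region, against 22.1% of all protein-coding genes, with a median place of 92.5 against 68.6. The promoter of *nr3c1*, the glucocorticoid receptor, scored 814, 1032 and 2922 (85.2 ± 4.57), and a region in an intron of *nr3c2*, the mineralocorticoid receptor, scored 3863, 1487 and 1818. The chaperone genes *hsp90aa1.2* and *hsp90ab1*, which hold the receptor ready to bind hormone, had 83.2 ± 1.49 and 79.8 ± 0.648.

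The highest places of this list were those of *txnipa*, *sgk1* and *fkbp5*. The promoter of *txnipa*, an inhibitor of thioredoxin, scored 9943, 7192 and 18832, and that of *sgk1*, a kinase of ion transport, 9197, 7033 and 18028. The promoter of *fkbp5*, a co-chaperone that lowers the receptor's affinity for hormone, scored 9624, 4996 and 13440 (99.1 ± 0.386). That of *klf9*, a transcription factor induced by the receptor, scored 4147, 3386 and 7090 (97.3 ± 0.286). The clock genes *per2*, *per1b*, *cry2* and *per1a* had mean places of 99.0, 97.8, 93.1 and 80.1. The regions of *per1b* and *cry2* were promoters, whereas those of *per2* and *per1a* were intergenic, 18677 and 3405 bp upstream of the start. The other genes of the list were *glcci1*, *dusp1*, *tsc22d3*, *nfkbiaa*, *nfkbiab*, *fkbp4* and *ncor1*, from 98.8 for *glcci1* down to 51.4 for *ncor1*. Of these, *nfkbiaa*, *nfkbiab*, *fkbp4* and *ncor1* stood below *nr3c1*. The region of *nfkbiaa* was intergenic, 32529 bp upstream of the start. The lowest library differed from gene to gene. Replicate 1 had the lowest place in 31.6% of the genes of this list and in 58.6% of all named genes.

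Housekeeping lists gave a scale for these values. Of 85 cytosolic ribosomal protein genes, 69 (81.2%) had a common region and 64 a promoter region, against 22.1% of all protein-coding genes with a region, with a median place of 71.0 and a range from 36.3 for *rps21* to 96.3 for *rplp0*. Of 58 proteasome genes, 39 (67.2%) had one and 28 a promoter region, with a median of 60.2, from 23.7 for *psma6b* to 95.3 for *psmd8*. Neither of these 2 was a promoter, as the *psma6b* region was exonic and the *psmd8* region lay 2326 bp upstream. A second region named for *psma6b*, 12383 bp wide, scored 39619, 25706 and 13231. It lay apart from the gene's start, at 17113257 to 17125639 of chromosome 20, whereas the exonic region lay at 17006655 to 17007172. In the proteasome list the median place was 42.2 in replicate 1 and 68.8 and 69.6 in replicates 2 and 3, and replicate 1 was the lowest in 76.9% of its genes. In the ribosomal list replicate 1 was the lowest in 72.5%, and among all named genes in 58.6%. The median places of all named genes were 65.6, 69.4 and 73.0 in replicates 1, 2 and 3. Of 26 genes for histone variants, high mobility group proteins and chromatin regulators, 20 (76.9%) had a common region, with a median of 87.2. The replacement histone gene *h2afx* scored 4630, 4168 and 10655, and *hmgb1a* and *hmgb2a*, abundant DNA-bending proteins, had places of 97.8 ± 1.03 and 97.6 ± 0.904. The bromodomain gene *brd2a* had 96.9, the insulator protein gene *ctcf* 88.1, the methyltransferase genes *kmt2a* and *ezh2* 88.5 and 86.4, and *smarca5*, a nucleosome remodeller, 39.2.

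The regions on which the libraries differed most were of several kinds. Of the 618 regions with places over 50 points apart, replicate 3 was the one far below the others in 378 (61.2%), and none of these was annotated. Replicate 1 was far below in 96, of which 81 were annotated, and far above in 76, of which 2 were. Replicate 2 was far above in 25 and far below in 24, of which 15 were annotated, and replicate 3 was far above in 19, of which 13 were. Chromosome 4 held 68 of the 618.

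Among the 10 annotated regions with the widest percentile gap, replicate 1 or replicate 2 was the lowest. By percentile among all regions of a library, the widest gap was at *lmo2*, 3936 bp upstream of its start, with scores of 324, 36 and 346. Replicate 2 was also the lowest at the promoters of *prpsap2* (172, 33 and 369) and *dhx16* (157, 36 and 404) and in an intron of *exoc6* (232, 45 and 477). It was the lowest too at regions nearest to *si:dkey-15h8.11*, *cyb5r4* and *stk38a*. Replicate 1 was the lowest at a promoter region of *rpl14* (38, 298 and 346) and at a region 65427 bp from *esrrgb* (35, 273 and 128). A second promoter region of *rpl14* did not share this, with 471, 491 and 1155. By place instead of percentile, the widest gap of an annotated region was at the promoter of *pdap1b*, which scored 70, 939 and 2084. Its places were 7.34, 85.6 and 83.1 in replicates 1, 2 and 3, a gap of 78.3 points, against 56.9 for the *lmo2* region.

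One stretch of chromosome 16 was lowest in replicate 2. Between 36258974 and 36491707 lay 12 common regions without annotation, up to 9312 bp wide, and replicate 2 had the lowest score in all 12. In 8 of them the places were over 50 points apart. The median scores were 716, 83 and 246.5, and the median places 77.5, 14.4 and 30.9 in replicates 1, 2 and 3. In one region of 6715 bp the scores were 950, 45 and 279. This stretch was chosen after its values were seen, and no cause was tested.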

How the data were processed

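ATAC-seq of adult zebrafish blood was analysed from the lists of 3 control libraries. Per the paper and the submitters' processing notes, the authors trimmed reads with Trimmomatic 0.32, shortened them, aligned them to GRCz10 with Bowtie 1.0.0, which could keep a read that matched a few places, and removed mitochondrial reads with SAMtools 0.1.18. They called peaks with MACS2 2.1.1.20160309 with all duplicates kept, against 1 background for the whole genome. Each library was called alone. The genome size that the methods print for MACS2 was far below the length that the peaks span. If it was the one used, it raised that background and shortened the lists. A misprint cannot be told apart from it. The deposited score is 10 times -log10 of the q-value at the summit. It rises with depth, and a called region with several summits is listed once for each.

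The deposited annotation by HOMER 4.8 holds the nearest gene, location class and distance to the start of regions the study scored as larger in treated fish. Its score of that comparison was not used, and neither were the treated libraries.

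Peaks sharing at least 1 bp were merged, after a check on simulated data. The place of a region among the common regions was added after the data had been seen, because the lists differ in length. Symbols were matched through RefSeq (GRCz12tu, names only), where 6007 of 6058 names were found. Genes were named by rule: the 25 strongest annotated common regions, all list genes, and the 10 annotated regions with the widest percentile gap and the 10 widest. One result that the rule names is not reported here. The regions and lists were chosen with earlier results of these data known. The spread between the 3 libraries may be technical, since age and library coincide. A planned search of promoter sequences was not run, and no sequence was used here. Python 3.11.15, pandas 2.3.3, scipy 1.17.1 and matplotlib 3.10.9 were used.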

Additional observations from a re-analysis of the deposited data

How the results depend on the processing

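Leaving out 1 library in turn gave 17859 to 35325 common regions, with 35325 when the shortest list, replicate 3, was left out. The median width then ran from 467 to 505 bp, the annotated share from 24.7% to 49.7%, with 24.7% without replicate 3, the rank agreement from 0.73 to 0.80, the promoter share from 49.5% to 49.9%, and the shared strongest 10% from 72.4% to 81.5%. Where an overlap had to cover 50% of the shorter peak, the median width was 462 bp and the shared strongest 10% was 62.1%. Scores of at least 100 gave a width of 606 bp and an annotated share of 69.8%, and equal numbers of peaks (the strongest 29401 of each list) gave 605 bp and 62.2%. Without the regions scored lower in replicate 3 than in replicate 1, chosen after seeing the data, 12267 regions were left, the median width was 578 bp, the annotated share was 68.2%, the promoter share 51.5%, the mean rank agreement 0.90 against 0.80, and the shared strongest 10% 79.2%. That choice of regions uses the scores of replicates 1 and 3, so it raises their agreement by itself. Promoters taken as all regions within 1000 bp of a start made up 56.0%. Of all these values, 22 moved beyond a limit and 44 did not. The limit was the spread between libraries, the counting interval for shares, or 1.5 times for the number of common regions. Among the 44 were the promoter shares without 1 library, the width of 578 bp and the 12267 regions. So were the values with summed scores, with percentiles among single summits, and without broad regions or unplaced scaffolds. The number of common regions fell to 11143 with scores of at least 100 and to 12759 with equal numbers of peaks, also among the 44. No alternative turned a direction, since no groups were compared. No paired analysis was possible because only 1 group was used. The planned promoter sequence search and its alternatives were not run. Read depth limits all of this: it is unknown here, the lists differ in length by library, and a missing peak is not closed chromatin.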
